A study of Homo sapiens with 10 samples.

Results

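The aldo-keto reductases described here are 10 genes, AKR1A1, AKR1B1, AKR1B10, AKR1C1, AKR1C2, AKR1C3, AKR1C4, AKR1D1, AKR7A2 and AKR7A3, taken by symbol from the 26485 genes listed in the count tables. They were measured by RNA-seq of polyadenylated RNA in cells of SW480, a line from a human colorectal cancer whose genotype is labelled WT in every library. Flow sorting with an antibody to the receptor ROBO1 divided the cells into a positive population (labelled SW480-CBC, here ROBO1pos) and a negative one (labelled SW480-RSC, here ROBO1neg), with 5 libraries of each and no other treatment named. Both populations come from 1 line, so differences between them are differences within that line. The genes were selected on family membership with the measured ROBO1pos to ROBO1neg differences in these same libraries already known, so their differences between the populations are given as a description, without p-values.

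Library depth was similar, with 23228686 to 29539100 reads counted on genes, and 14932 genes had enough counts to be tested. ROBO1 itself was at 429.5 ± 26.7 counts per 1000000 reads on genes after TMM scaling of library sizes (CPM; SD, n = 5) in ROBO1pos, against 7.25 ± 1.47 in ROBO1neg. Whether the 5 libraries came from separate cultures is not in the labels, so the errors are those between libraries and may be technical only. Of 11 colon epithelial genes used to check the labelled cell type, 10 were tested, and their summed level ran from 5778 to 7035 CPM in ROBO1pos and from 7981 to 10495 CPM in ROBO1neg. KRT20 was at 0 in every library, VIL1 was at 503 ± 23.3 against 27.7 ± 3.14 CPM, EPCAM at 679.9 ± 22.9 against 303 ± 12.8 CPM, KRT18 at 2343 ± 231 against 4095 ± 424 CPM, and KRT19 at 493 ± 65.8 against 872 ± 74.0 CPM, each ROBO1pos first. The largest parts of the epithelial sum were KRT18 and KRT8, the latter at 2165 against 3755 CPM. LGALS4 (0.534 against 0.461 CPM), GPA33 (0.631 against 0.255 CPM) and CDX1 (0.744 against 0.0306 CPM) were below 1 CPM in both populations. CDX2 was at 28.79 against 30.04 CPM and CDH1 at 34.2 against 44.4 CPM. The summed level thus rests mainly on keratins and says little about the other genes. Of 15 markers of blood, vessel, stroma, liver, nerve and red cells, 5 were tested. The summed level of all 15 ran from 12.2 to 15.9 CPM in ROBO1pos and from 18.4 to 28.3 CPM in ROBO1neg. Of the 5 tested, COL1A1 (log2 fold change -1.56), VWF (-2.82), PDGFRB (-1.35) and CD68 (-0.80) were higher in ROBO1neg. The liver gene ALB was higher in ROBO1pos, at 5.28 ± 1.06 against 0.147 ± 0.0581 CPM. COL3A1 and HBB were at 0 in every library, and the liver gene APOA1 had 8 counts in all of ROBO1pos and 5 in all of ROBO1neg.

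Aldo-keto reductases are barrel-shaped enzymes that reduce aldehydes and ketones with NADPH. AKR1A1 (aldehyde reductase) and AKR1B1 (aldose reductase, the first step of the polyol pathway from glucose to sorbitol) act on sugars and small aldehydes, and AKR1B10, a gut enzyme, on retinal and lipid aldehydes. AKR1C1 to AKR1C4 are ketosteroid reductases encoded side by side on the short arm of chromosome 10: AKR1C1 inactivates progesterone, AKR1C2 inactivates dihydrotestosterone, AKR1C3 makes testosterone and prostaglandin F, and AKR1C4 is best known from liver, where it serves bile acid synthesis. AKR1D1 reduces the double bond of steroid hormones on the path to bile acids, AKR7A2 reduces succinic semialdehyde, and AKR7A3 reduces the dialdehyde of aflatoxin. Several family members are known targets of the transcription factor NRF2, which the KEAP1 protein holds in check until oxidants or electrophiles release it.

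The AKR1C genes are close copies of one another, and the DNA just before their start sites is shown because these neighbours were found at very different levels. The windows are the 250 bases before each annotated start in RefSeq (GRCh38.p14), written 5′ to 3′ on the gene's own strand. AKR1C3 has a window for each of a pair of annotated starts, the second of which lies inside the gene. The AKR1C2 window also belongs to a start inside the annotated gene, whose outer end is at 5018000, and no window of a start at that end was used here. Capitals mark matches to CCAAT, a common proximal promoter element, or to TATAAA, the TATA box, read on either strand (ATTGG and TTTATA on the other strand).
AKR1C1, chr10:4963165-4963414, plus strand: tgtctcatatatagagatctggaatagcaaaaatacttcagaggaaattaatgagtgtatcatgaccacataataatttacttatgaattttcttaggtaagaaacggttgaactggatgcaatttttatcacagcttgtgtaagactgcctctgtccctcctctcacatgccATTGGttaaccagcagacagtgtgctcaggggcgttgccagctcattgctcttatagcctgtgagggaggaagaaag
AKR1C2, chr10:5003858-5004107, minus strand: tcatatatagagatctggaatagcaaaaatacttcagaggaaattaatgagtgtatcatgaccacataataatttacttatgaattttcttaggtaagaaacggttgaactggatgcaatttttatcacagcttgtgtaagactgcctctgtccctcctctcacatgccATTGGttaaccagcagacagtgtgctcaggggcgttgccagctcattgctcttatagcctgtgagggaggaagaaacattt
AKR1C3 first start, chr10:5048531-5048780, plus strand: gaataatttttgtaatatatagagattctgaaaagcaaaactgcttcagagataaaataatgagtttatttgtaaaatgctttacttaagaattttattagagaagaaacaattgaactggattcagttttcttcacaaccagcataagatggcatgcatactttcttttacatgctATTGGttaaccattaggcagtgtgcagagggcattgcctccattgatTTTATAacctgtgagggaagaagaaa
AKR1C3 second start, chr10:5094164-5094413, plus strand: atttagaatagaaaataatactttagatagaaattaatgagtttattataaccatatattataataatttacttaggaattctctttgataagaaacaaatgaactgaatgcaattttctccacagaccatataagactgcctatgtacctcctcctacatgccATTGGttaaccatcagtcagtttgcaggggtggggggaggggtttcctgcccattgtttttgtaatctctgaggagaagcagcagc
AKR1C4, chr10:5196587-5196836, plus strand: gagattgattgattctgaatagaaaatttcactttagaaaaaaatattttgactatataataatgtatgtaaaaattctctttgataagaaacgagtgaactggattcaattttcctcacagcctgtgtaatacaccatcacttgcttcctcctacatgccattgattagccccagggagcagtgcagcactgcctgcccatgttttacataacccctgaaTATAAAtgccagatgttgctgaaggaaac

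The windows of AKR1C1 and AKR1C2 were almost the same sequence, with 245 of 246 aligned bases identical (99.59%). All other pairs among these windows were 68.51% to 79.15% identical. CCAAT was matched on the other strand at positions -77 to -73 before the AKR1C1 start, -81 to -77 at AKR1C2, and -73 to -69 and -86 to -82 at the AKR1C3 starts, and it had no match in the AKR1C4 window. TATAAA was matched at -29 to -24 in AKR1C4 and, on the other strand, at -26 to -21 in the first AKR1C3 window. Over 35116 RefSeq promoter windows of the same length, 32.01% held CCAAT and 10.72% held TATAAA. The antioxidant response element core TGACNNNGC, the letters bound by NRF2, was searched on both strands in the 12 windows that 9 of the 10 members have. It was found in 2 windows, both of AKR7A2, and in 10.91% of all windows. These 2 windows begin at 19312145 and 19312147, so they overlap almost fully and hold the same matches. The 250 bases examined do not cover distal elements.

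Of the 10 members, 7 had enough counts to be tested, and 6 of these were higher in ROBO1pos at an edgeR quasi-likelihood adjusted p under 0.05: AKR1A1, AKR1C1, AKR1C3, AKR1C4, AKR7A2 and AKR7A3. Among all 14932 genes, 82% passed that threshold, 41.6% as higher in ROBO1pos and 40.4% as higher in ROBO1neg. The libraries of the populations did not overlap for the same 6 members, against 71.9% of all genes tested (36.1% with ROBO1pos higher). The family differed widely in size of difference: 3 of the 7 were at least 8-fold higher in ROBO1pos, as were 3.9% of all genes, and 2 were at least 32-fold higher, as were 1.79% of all genes. These counts are given as a description, since the comparison was known when the family was chosen. The filter on low counts also shapes them. AKR1C1, AKR1C3, AKR1C4 and AKR7A3 had too few counts in ROBO1neg to pass it there, and passed it through their ROBO1pos libraries. All members counted above as at least 8-fold higher are among them. AKR1B1, whose libraries were all higher in ROBO1neg, did not pass it and is not among those tested.

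**Figure D1:**
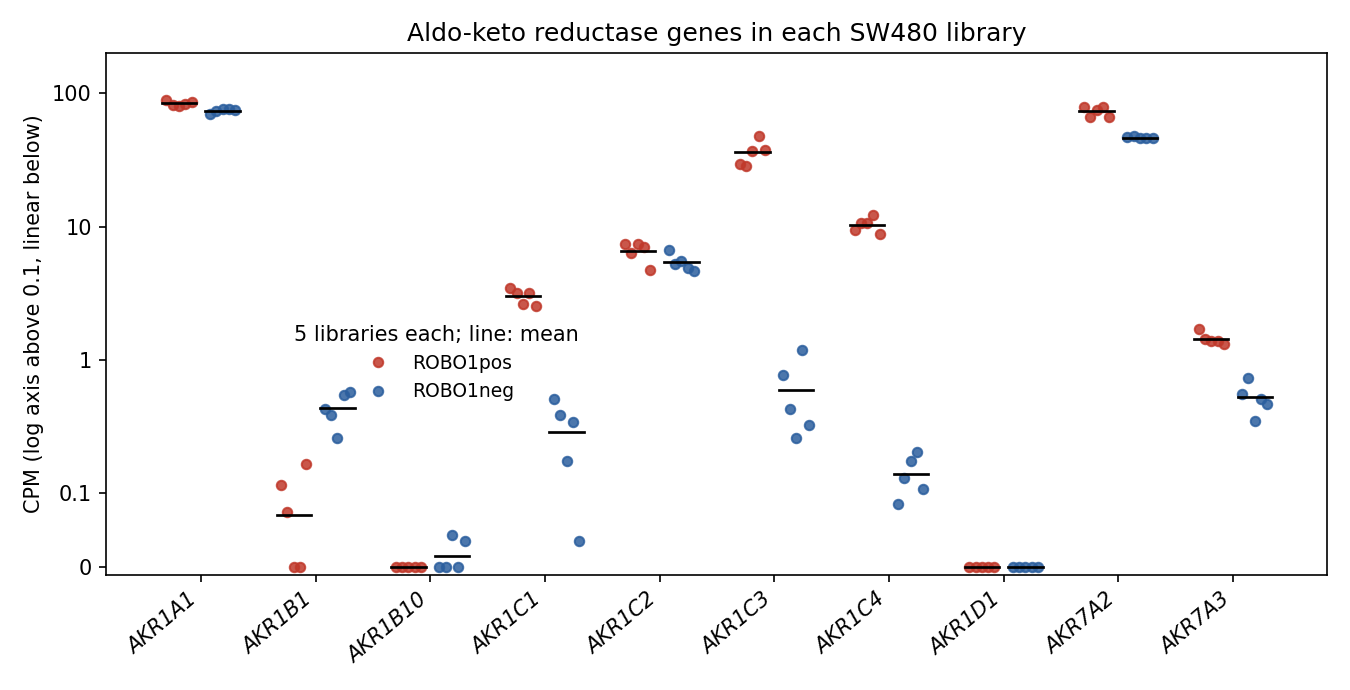
CPM of the 10 genes in each of the 5 ROBO1pos and 5 ROBO1neg libraries (points) with group means (lines), on an axis that is logarithmic above 0.1 CPM and linear below. The points of AKR1C1, AKR1C3 and AKR1C4 lie in separate groups far apart, those of AKR1C2 overlap, and AKR1A1 and AKR7A2 are the highest in both populations.

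AKR1C3 (chromosome 10, 5048781 to 5107686, plus strand in GRCh38), the enzyme of testosterone and prostaglandin F synthesis, was the most abundant AKR1C gene of ROBO1pos. Its level was 29.4, 28.4, 36.7, 47.7 and 37.6 CPM in ROBO1pos replicates 1 to 5 (36.0 ± 7.77, SD, n = 5). In ROBO1neg replicates 1 to 5 it was 0.765, 0.431, 0.260, 1.19 and 0.325 CPM (0.595 ± 0.387). The lowest ROBO1pos library was far above the highest ROBO1neg library, and replicate 4 was the highest in each population. The log2 fold change was 5.87 (SE 0.26), or 58.3-fold. The ROBO1neg values rest on 6 to 35 counts per library, and the ratio of summed counts, 4572 to 78, was 58.2 after the same scaling, with an exact 95% interval of 46.5 to 73.8 for counting error alone.

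AKR1C4 (chromosome 10, 5196837 to 5218949, plus strand), the liver-type ketosteroid reductase, showed the largest fold of the tested members. It was at 9.48, 10.6, 10.6, 12.1 and 8.75 CPM in ROBO1pos (10.3 ± 1.28). In ROBO1neg it was at 0.0850, 0.129, 0.174, 0.205 and 0.108 CPM (0.140 ± 0.0487). Every ROBO1neg library thus held only 2 to 6 counts of it, against 213 to 300 counts in each ROBO1pos library. The log2 fold change was 6.14 (SE 0.19), or 70.4-fold, and the ratio of summed counts, 1319 to 18, was 72.8 (exact 95% interval 45.9 to 123). ALB, a liver gene whose values are given above, was also higher in ROBO1pos, while APOA1 was near 0 in both and the other 4 tested markers of other cell types were higher in ROBO1neg. Their part in the result was not tested. Whether fewer cells or less RNA per cell give a lower level in such bulk libraries cannot be told apart, for this gene or any other.

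AKR1C1 (chromosome 10, 4963415 to 4983283, plus strand), which inactivates progesterone, differed in the same direction at a lower level. It was at 3.44, 3.15, 2.63, 3.19 and 2.55 CPM in ROBO1pos (2.99 ± 0.386). In ROBO1neg it was at 0.510, 0.388, 0.174, 0.341 and 0.0361 CPM (0.290 ± 0.186), from 12, 9, 4, 10 and 1 counts. The populations did not overlap, and ROBO1neg replicate 5 was the lowest library. The log2 fold change was 3.37 (SE 0.31), or 10.4-fold, and the ratio of summed counts, 383 to 36, was 10.6 (exact 95% interval 7.50 to 15.3).

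AKR1C2 (chromosome 10, 4987775 to 5018000, minus strand), which inactivates dihydrotestosterone, differed least in the cluster. It was at 7.35, 6.37, 7.44, 7.07 and 4.73 CPM in ROBO1pos (6.59 ± 1.12). In ROBO1neg it was at 6.71, 5.21, 5.56, 4.85 and 4.65 CPM (5.40 ± 0.814). The populations overlapped, since ROBO1pos replicate 5 was below 4 of the 5 ROBO1neg libraries. The log2 fold change was 0.29 (SE 0.14), or 1.23-fold, and did not pass the threshold, although it did under 5 of the alternatives: without ROBO1pos replicate 5 (0.39), without ROBO1neg replicate 1 (0.38), with upper-quartile scaling (0.36), with the replicate number as a block (0.29) and against the median of its nearest genes (0.44). Of this pair, whose upstream windows printed above differ at 1 aligned base, AKR1C1 was thus near the floor of detection in ROBO1neg and AKR1C2 was not.

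The close similarity of these genes bears on how far their counts can be separated. Their coding sequences, 969 bases each, were 98.04% identical between AKR1C1 and AKR1C2, 91.43% and 91.02% between AKR1C3 and each of these, and 88.22% to 88.95% between AKR1C4 and the other genes. Of all 50-base stretches of coding sequence, 54.35% in AKR1C1, 57.07% in AKR1C2, 23.04% in AKR1C3 and 17.61% in AKR1C4 also occur in another gene's transcript. With 100-base stretches the shares were 20.69%, 26.44%, 9.77% and 0.690%. Reads aligned to several places, which are not counted on any gene, made up 24.6% ± 0.875 of the tallied entries in ROBO1pos and 21.2% ± 0.398 in ROBO1neg. No source used here gives the read length. The split between AKR1C1 and AKR1C2 is therefore the least certain of these values, and the part of shared reads in it was not tested.

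The make-up of the AKR1C group differed between the populations. Scaled to coding length, the summed AKR1C level was 57.7 ± 8.96 CPM per kb in ROBO1pos (50.1 to 72.4 across libraries) and 6.63 ± 1.10 in ROBO1neg (5.28 to 8.33). AKR1C3 made up 64.0% ± 5.19 of it in ROBO1pos and 9.03% ± 5.42 in ROBO1neg. AKR1C2 made up 12.0% ± 2.44 in ROBO1pos and 84.5% ± 6.95 in ROBO1neg. AKR1C3 was the leading AKR1C gene in all 5 ROBO1pos libraries and AKR1C2 in all 5 ROBO1neg libraries. AKR1C4 made up 18.6% ± 2.13 and 2.24% ± 0.796, and AKR1C1, whose ranges overlapped, 5.46% ± 1.15 and 4.26% ± 2.45. Scaling by the length of a whole transcript instead, an alternative chosen after the data were seen, gave AKR1C3 67.3% against 16.5% and AKR1C2 6.07% against 76.1%, with the same leading gene in each population. Neither scaling allows for the unequal shares of stretches that these genes have in common with others, and the effect of this was not tested.

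**Figure D2:**
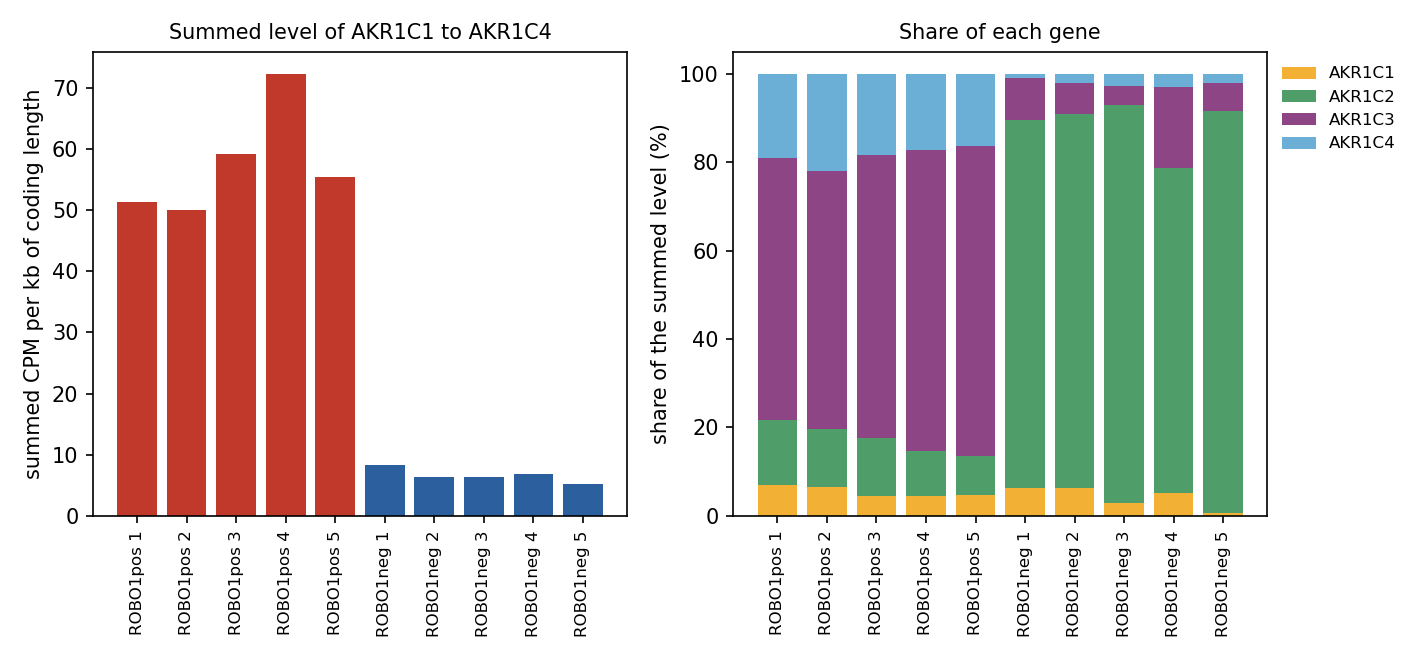
Left, summed level of AKR1C1 to AKR1C4 in each library, in CPM per kb of coding length; right, the percentage of that sum from each gene. The 5 ROBO1pos bars lie between 50.1 and 72.4 and are mostly AKR1C3, and the 5 ROBO1neg bars lie between 5.28 and 8.33 and are mostly AKR1C2.

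As a group, the genes around the AKR1C cluster did not share its difference, though some single genes among them differed strongly. The nearest tested genes, all 11 toward the chromosome end and 20 on the other side, differed by a median of -0.14 on the log2 scale, and 10 were higher in ROBO1pos, 15 in ROBO1neg and 6 in neither at the threshold. The median over all genes was 0.02. Single genes among the neighbours lay far from their median in both directions. CELF2 (log2 fold change 5.69) and PRR26 (4.48) were higher in ROBO1pos, and ZMYND11 (-7.10) and DIP2C (-6.99) in ROBO1neg. On the telomeric side, AKR1E2, another aldo-keto reductase, was at 6.20 ± 0.708 against 5.20 ± 0.666 CPM (log2 fold change 0.25, not passing), the zinc-finger factor KLF6 at 21.7 against 96.6 CPM (-2.15), and the mitochondrial protease PITRM1 at 49.1 against 41.8 CPM (0.23). On the other side, NET1 was at 251.7 against 494 CPM (-0.97) and CALML3-AS1 at 1.95 against 3.01 CPM (-0.62). CALML3, a calmodulin-like gene, was higher in ROBO1pos (0.862 against 0.0601 CPM, log2 fold change 3.68), and its annotation overlaps that of CALML3-AS1, so reads of these 2 genes may not be separated. Differences of both signs thus lay next to the cluster, and AKR1C2 within it differed little.

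**Figure D3:**
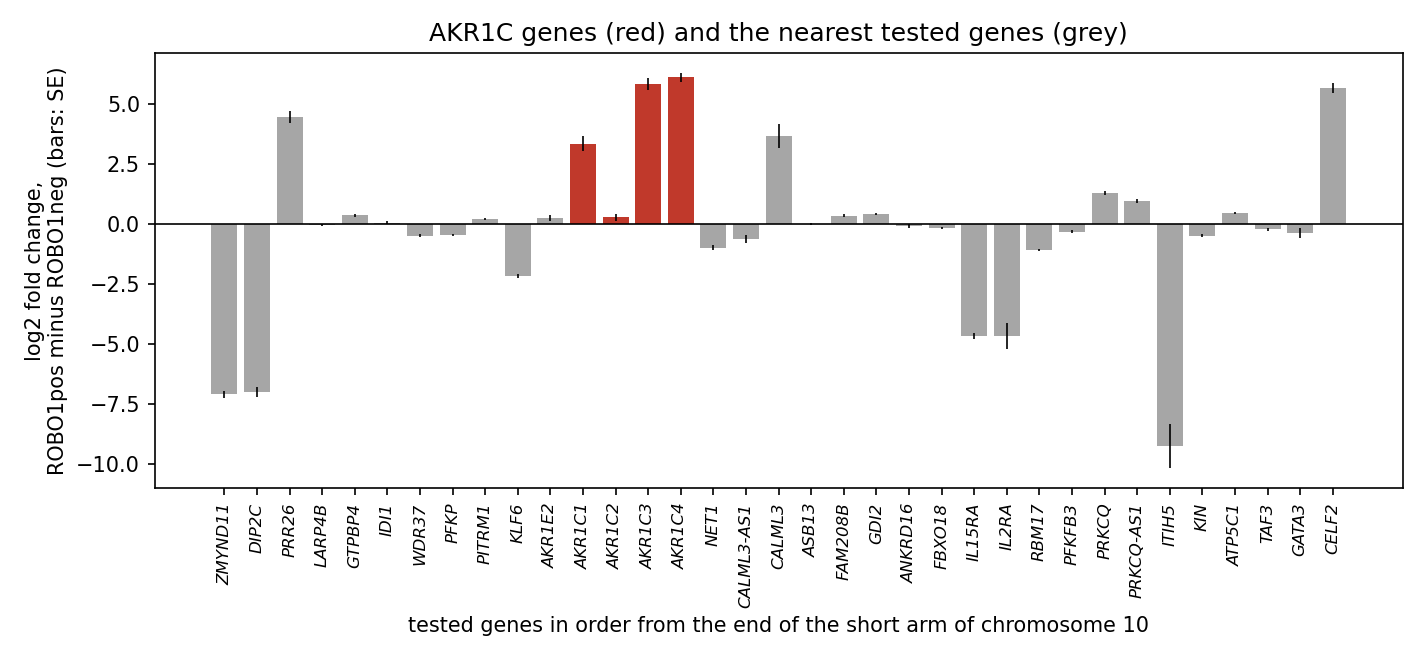
Log2 fold change (ROBO1pos minus ROBO1neg, bars: SE) of the tested genes at the end of the short arm of chromosome 10, in their order along it, with AKR1C genes in red. AKR1C1, AKR1C3 and AKR1C4 stand at 3.37, 5.87 and 6.14 among neighbours whose median is -0.14, and AKR1C2 is at 0.29. Single neighbours, such as CELF2 (5.69) and ZMYND11 (-7.10), also lie far from 0.

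The AKR7A genes, aldehyde reductases encoded together on chromosome 1, were both higher in ROBO1pos. AKR7A2 (chromosome 1, 19302708 to 19312146, minus strand) was at 78.9, 66.2, 75.1, 78.3 and 66.1 CPM in ROBO1pos (72.9 ± 6.34). In ROBO1neg it was at 46.5, 47.7, 46.0, 46.2 and 45.9 CPM (46.5 ± 0.739), a narrow range below every ROBO1pos library. Its log2 fold change was 0.65 (SE 0.06), and the median of its nearest genes was 0.36, which leaves 0.29 against that neighbourhood. AKR7A3 (chromosome 1, 19274229 to 19288770, minus strand), the aflatoxin aldehyde reductase, was at 1.70, 1.45, 1.39, 1.37 and 1.31 CPM in ROBO1pos (1.45 ± 0.151). In ROBO1neg it was at 0.552, 0.732, 0.347, 0.512 and 0.469 CPM (0.522 ± 0.140). The populations did not overlap, and the log2 fold change was 1.47 (SE 0.19), or 1.08 against its neighbourhood.

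The third gene of that cluster, AKR7L, an AKR7A-like gene outside the 10, was at 2.94 ± 0.367 CPM in ROBO1pos against 0.554 ± 0.276 (log2 fold change 2.39 with SE 0.25). AKR7A3 and AKR7L were 95.67% identical over their coding sequences, and 31.46% of the 50-base stretches in AKR7A3 occur in another gene, so their counts are less certain than those of AKR7A2 (10.21%). The overlapping windows before the AKR7A2 starts held the same 3 matches to the antioxidant response core, and the AKR7A3 window held none.

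AKR1A1 (chromosome 1, 45550826 to 45570049, plus strand), the general aldehyde reductase, had the highest CPM of the family and a small difference. It was at 88.4, 82.1, 79.7, 83.1 and 85.9 CPM in ROBO1pos (83.8 ± 3.40). In ROBO1neg it was at 69.7, 73.7, 75.5, 76.5 and 74.9 CPM (74.1 ± 2.66). The highest ROBO1neg library, at 76.5 CPM, was just below the lowest ROBO1pos library, at 79.7 CPM, and the log2 fold change was 0.18 (SE 0.04). The median of its nearest genes was 0.19, and against it the difference was -0.0075. Its coding sequence shares no 50-base stretch with another gene.

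The AKR1B genes and AKR1D1, all on the long arm of chromosome 7, were at or near the floor of detection. AKR1B1 (134442350 to 134459239, minus strand), the aldose reductase of the polyol pathway, had 3, 2, 0, 0 and 4 counts in ROBO1pos and 10, 9, 6, 16 and 16 in ROBO1neg, or 0.0709 ± 0.0722 against 0.439 ± 0.128 CPM. It was the one member whose libraries were all higher in ROBO1neg, with a ratio of summed counts, 57 to 9, of 6.38 (exact 95% interval 3.13 to 14.7). It had too few counts for the main test. Without the filter on low counts its log2 fold change was -2.59 (SE 0.53), and with DESeq2 it was -2.66.

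AKR1B10 (134527567 to 134541412), the gut retinal and aldehyde reductase, had 0 counts in every ROBO1pos library and 1 count in each of ROBO1neg replicates 3 and 5. AKR1D1 (138076459 to 138118305) had 0 counts in all 10 libraries. A count of 0 over the 5 libraries of a population allows up to 0.0235 CPM in ROBO1pos and 0.0236 CPM in ROBO1neg (3 counts of the summed, scaled gene totals, for counting error alone). No fold is given for either gene.

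Scaled to coding length, the order of levels in ROBO1pos was AKR1A1 (86.0 CPM per kb), AKR7A2 (67.7), AKR1C3 (37.1), AKR1C4 (10.7), AKR1C2 (6.80), AKR1C1 (3.09), AKR7A3 (1.46) and AKR1B1 (0.0748). No neighbours in that order overlapped across libraries. Reads aligned to several places are not counted, and 57.07% of 50-base coding stretches in AKR1C2 occur in another gene, against 17.61% in AKR1C4. The effect of this on their order was not tested. In ROBO1neg the order was AKR1A1 (76.0), AKR7A2 (43.1), AKR1C2 (5.57), AKR1C3 (0.614), AKR7A3 (0.526), AKR1B1 (0.463), AKR1C1 (0.299) and AKR1C4 (0.145). There the library ranges of the last 5 genes overlapped those of their neighbours, so that part of the order is not resolved. By transcript length, the alternative named above, AKR7A2 (53.5 CPM per kb, 48.5 to 57.9 across libraries) stood above AKR1A1 (46.1, 43.8 to 48.6) in ROBO1pos, with ranges that just overlap, and AKR7A3 (0.846) above AKR1C1 (0.446). In ROBO1neg, AKR1A1 (40.7) and AKR7A2 (34.1) kept their order, and AKR1B1 (0.312) stood above AKR7A3 (0.306) and AKR1C4 (0.0991) above AKR1C1 (0.0432). The 10 genes summed to 213 ± 12.8 CPM per kb in ROBO1pos and 127 ± 1.96 in ROBO1neg, and the AKR1C genes made up 27.0% ± 2.86 and 5.23% ± 0.921 of these sums (22.6% and 2.47% by transcript length).

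**Figure D4:**
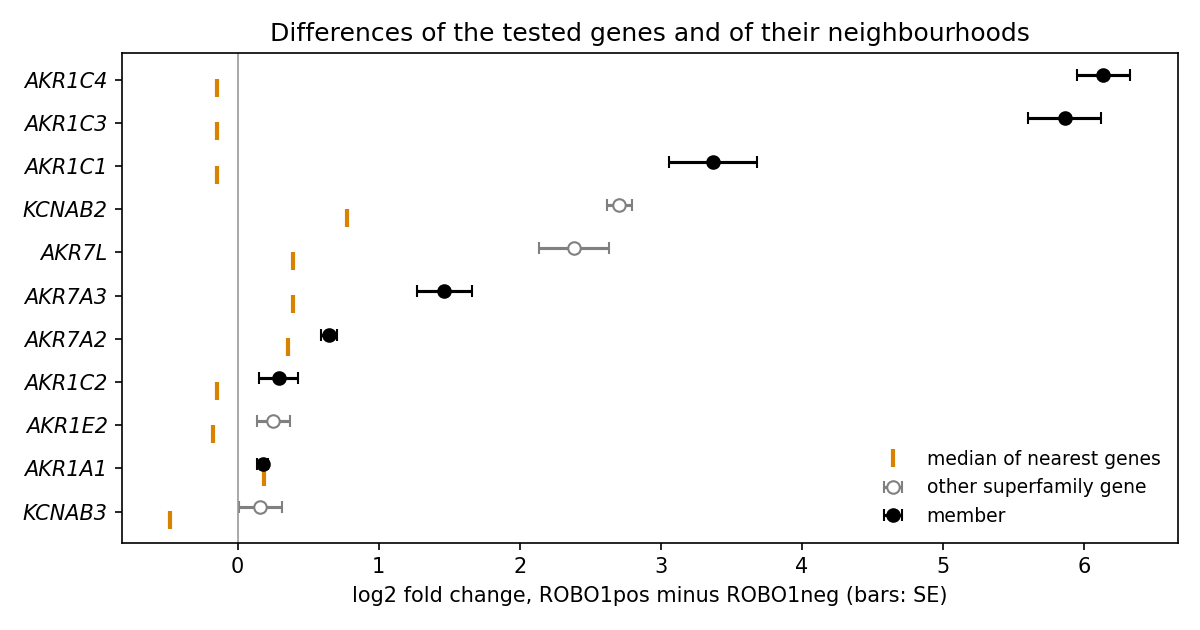
Log2 fold change (ROBO1pos minus ROBO1neg, bars: SE) of the 7 tested members (filled) and 4 other tested genes of the superfamily (open), with the median of the nearest genes of each as an orange mark. AKR1C4, AKR1C3 and AKR1C1 lie at 6.14, 5.87 and 3.37, far from their orange marks, and AKR1A1 lies on its mark.

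Of 10 other superfamily genes, 9 are in the files and 4 were tested. Of these, AKR7L and KCNAB2 passed as higher in ROBO1pos and none as higher in ROBO1neg, beside 41.6% and 40.4% of all genes tested. KCNAB2, a potassium channel beta subunit with an aldo-keto reductase fold, was at 119.9 ± 6.06 against 18.3 ± 3.00 CPM (log2 fold change 2.71, SE 0.09). It overlaps NPHP4 on the opposite strand, which had 4884 counts in ROBO1pos and 1934 in ROBO1neg, so its reads may not be separated from that gene's. KCNAB3 (2.49 against 2.24 CPM) and AKR1E2 did not pass in the main fit. AKR1E2 did pass under some alternatives, among them upper-quartile scaling, library size alone and the filter of 5 CPM. Among the untested genes, AKR1C8P and AKR1C6P had 0 counts in every library, AKR1B15 had 1 count, KCNAB1 had 1 in each population, and AKR7A2P1 had 8 in ROBO1pos and 0 in ROBO1neg.

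NRF2 and its partners were compared because NRF2 is the best known activator of this family. Of 14 tested regulators, 4 passed as higher in ROBO1pos, 9 as higher in ROBO1neg and 1 as neither. Their median log2 fold change was -0.44, against 0.02 over all genes. The list holds partners of NRF2 together with inhibitors such as KEAP1, so these counts and this median give no direction for NRF2 itself. NFE2L2, which encodes NRF2, was at 94.8 ± 3.16 against 139 ± 5.57 CPM, with ROBO1pos given first here and for the genes that follow (log2 fold change -0.56 with SE 0.04). KEAP1, its inhibitor, was at 138 ± 3.59 against 96.6 ± 4.49 CPM (0.51, SE 0.04). Against the median of its nearest genes, the KEAP1 difference was -0.086 and did not pass the threshold. SQSTM1, which takes KEAP1 out of action by autophagy, was at 186 ± 7.08 against 779.6 ± 99.5 CPM (-2.07), and MAFF, a small MAF partner, at 15.4 ± 1.07 against 41.3 ± 5.10 CPM (-1.43). NFE2L1, a relative of NRF2, was at 182 ± 7.51 against 311 ± 18.4 CPM (-0.77), a difference that turned to 0.23 against its nearest genes.

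Among 28 tested NRF2 target enzymes outside the family, 7 passed as higher in ROBO1pos, 17 as higher in ROBO1neg and 4 as neither (median -0.47). NQO1, the quinone reductase that is the usual readout of NRF2, was at 37.3 ± 3.04 against 375 ± 14.7 CPM (log2 fold change -3.33 with SE 0.06). PTGR1, a reductase of prostaglandins and alkenals, was at 0.585 ± 0.180 against 69.7 ± 4.43 CPM (-6.88), and ABCC3, an exporter of conjugates, at 5.81 ± 1.53 against 140 ± 9.498 CPM (-4.60). PGD, of the NADPH-producing pentose phosphate pathway, went the other way, at 478 ± 13.8 against 195 ± 6.69 CPM (1.29). Of the 7 higher in ROBO1pos, GPX2 had a log2 fold change of 5.88 and ABCC2 of 4.03. AKR1C1 and AKR1C3, commonly listed with these genes as NRF2 targets, thus differed in the direction of GPX2 and ABCC2 and opposite to NQO1. The part of NRF2 in these differences was not tested.

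The other carbonyl and quinone reductases, which belong to other enzyme families, were mixed: 8 of 19 tested passed as higher in ROBO1pos, 10 as higher in ROBO1neg and 1 as neither (median -0.37). CBR3, a carbonyl reductase, was at 0.319 ± 0.152 against 10.2 ± 1.14 CPM (-4.97), and DHRS7B at 13.2 ± 0.820 against 26.8 ± 1.86 CPM. RDH11, a retinal reductase, was at 180.2 ± 12.9 against 123 ± 3.41 CPM (0.55).

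Of the enzymes that convert steroids beside the AKR1C genes, 12 of 17 tested passed as higher in ROBO1pos and 5 as higher in ROBO1neg (median 0.62). HSD11B2, which inactivates cortisol, was at 18.2 ± 1.497 against 2.65 ± 0.467 CPM (2.79, SE 0.11). The steroid reductase genes SRD5A1 (124 ± 8.42 against 52.0 ± 4.46 CPM, 1.25) and SRD5A3 (23.1 ± 1.17 against 10.6 ± 0.736 CPM, 1.12) were higher in ROBO1pos as well. HSD17B2, which oxidises testosterone and so runs opposite to the reaction of AKR1C3, was at 0.440 ± 0.124 against 28.996 ± 11.9 CPM (-6.03, SE 0.34).

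Prostaglandin and retinoid genes share substrates with AKR1C3 and AKR1B10. Of 13 tested prostaglandin genes, 4 passed as higher in ROBO1pos, 8 as higher in ROBO1neg and 1 as neither (median -0.29). HPGD, which starts prostaglandin breakdown, was at 1.237 ± 0.392 against 140 ± 18.4 CPM (-6.80), CBR1, a prostaglandin and carbonyl reductase, at 35.8 ± 2.21 against 58.9 ± 2.11 CPM (-0.72), and the thromboxane synthase gene TBXAS1 at 9.85 ± 0.465 against 2.62 ± 0.603 CPM (1.91). Of 20 tested retinoid genes, 6 passed as higher in ROBO1pos, 11 as higher in ROBO1neg and 3 as neither (median -0.75). The retinoic acid receptor RARA was at 22.8 ± 1.48 against 68.4 ± 5.45 CPM (-1.59) and CYP26A1, which degrades retinoic acid, at 0.307 ± 0.0607 against 11.6 ± 3.30 CPM (-5.22). LRAT, which stores retinol as esters, was at 3.17 ± 0.373 against 0.0465 ± 0.0325 CPM (5.93).

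Of 17 tested genes of the polyol pathway and of reactive aldehyde removal, 11 passed as higher in ROBO1pos, 4 as higher in ROBO1neg and 2 as neither (median 0.26). The glutathione transferases GSTP1 (691.5 ± 5.45 against 404 ± 14.03 CPM, 0.77) and GSTA4 (21.4 ± 2.21 against 3.97 ± 0.672 CPM, 2.43) were higher in ROBO1pos. The aldehyde dehydrogenases ALDH3B1 (1.95 ± 0.356 against 29.2 ± 4.93 CPM, -3.90) and ALDH3A1 (0.956 ± 0.184 against 8.75 ± 1.15 CPM, -3.19) were higher in ROBO1neg. Apart from NFE2L2 and KEAP1, which were named beforehand, the genes named in these pathway groups were picked from those past the edgeR threshold. Their passing was thus fixed by the choice. The counts of each group are to be read beside the 41.6% and 40.4% over all genes, 82% of which passed.

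**Figure D5:**
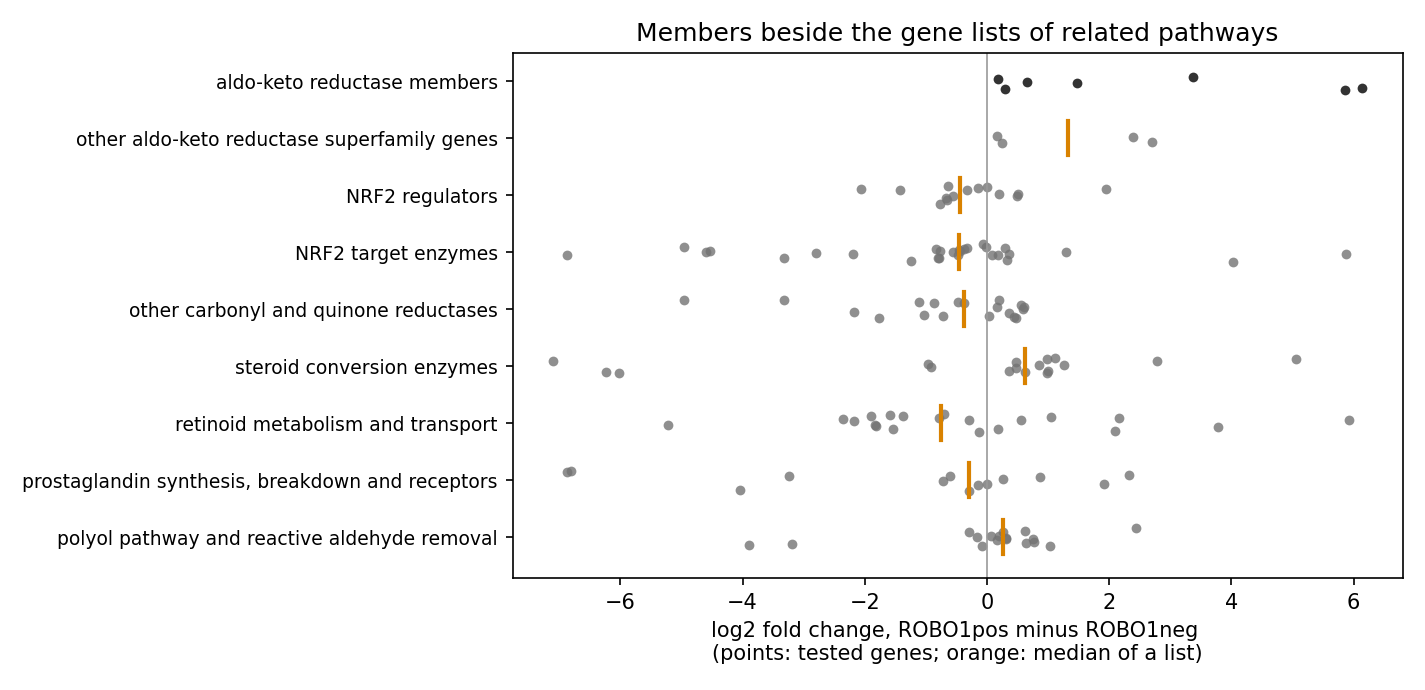
Log2 fold change (ROBO1pos minus ROBO1neg) of each tested member and of each tested gene in the lists of related pathways, with the median of each list in orange. The medians run from -0.75 for retinoid genes to 0.62 for steroid conversion enzymes, apart from 1.32 over the 4 other superfamily genes, and every list holds genes on both sides of 0 except that of the other superfamily genes.

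Within the populations, the members did not vary as one group. With each population's mean removed, the correlation of log2 CPM across the 10 libraries ran from -0.51 (AKR1A1 with AKR1C2) to 0.64 (AKR1C2 with AKR7A2) among pairs of tested members. The genes most like AKR1C3 by that measure, among 11460 genes with a mean of at least 5 CPM, were JAKMIP2-AS1 (r = 0.93), CWF19L1 (0.88), C21orf33 (0.87), ZNF587B (0.87) and SFR1 (0.86). These values describe 10 libraries that share their population means and depth, and AKR1C3 rests on few counts in the ROBO1neg ones. They are also the top values out of 11460. In ROBO1neg, all 5 genes were highest in replicate 4, as AKR1C3 was, and JAKMIP2-AS1 had only 1 to 18 counts per library. JAKMIP2-AS1 was also much higher in ROBO1pos (17.3 ± 1.77 against 0.263 ± 0.224 CPM), while CWF19L1 differed little (38.1 against 35.6 CPM).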

How the data were processed

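Per the labels' protocols, cells were kept in a phenol reagent until all replicates were in hand, and stranded libraries were made from polyadenylated RNA. The authors deposited raw counts per gene, with no normalisation, in 1 file per library. The build GRCh38 and the tools STAR 2.6.0c, SAMtools 1.9 and DESeq2 1.24.0 are named per the submitters' processing notes. No source used here gives the counting tool, its strand setting, the annotation or the read length. Library sizes leave out entries without a gene name, which are reads with no feature (15.8% of the tally in ROBO1pos, 14.6% in ROBO1neg), those aligned to several places (24.6%, 21.2%) and ambiguous ones (0.860%, 0.833%). Reads on genes were 58.7% and 63.4%. These shares together make up the whole tally, so unaligned reads are not in it. Whether a read aligned to several places was tallied once is not stated.

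Counts were analysed with edgeR 4.0.16 in R 4.3.3 (filterByExpr defaults, TMM scaling, quasi-likelihood fit with population as the only term, Benjamini-Hochberg adjusted p under 0.05, over 14932 genes). The procedure was tested on simulated data. CPM are counts per 1000000 of a library's TMM-scaled gene total, and standard errors come from the coefficient and its F statistic. At 23228686 to 29539100 reads on genes per library, a count of 0 in 1 library allows 0.102 to 0.130 CPM. Intervals of ratios are exact at 95% for counting error alone. No pair of libraries in a population was a duplicate (counts differed by 3.42 to 20.8 times the sampling variance). The fit was repeated with library size alone, RLE or upper-quartile factors for scaling, with other filters on low counts (none beyond 1 count, or 5 CPM in 5 libraries), with DESeq2 1.42.0 and limma-voom 3.58.1, against a minimum of 1.5-fold, with a block for replicate number, without each library in turn, and with differences taken against the median of the 20 nearest tested genes on each side.

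Positions came from the RefSeq table of GRCh38.p14, matched to 13663 tested genes by their symbol and to 944 by a former symbol; 325 had no match. Coding sequences, lengths and shared stretches came from GENCODE transcripts, and promoter windows from RefSeq; 9 of the 10 members have one.

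The members and the 10 gene lists were chosen with earlier results of these data known. Genes named are the members, ROBO1, NFE2L2, KEAP1, the superfamily genes, up to 4 passing genes per list by smallest adjusted p with at most 3 in 1 direction where both occur, the 3 nearest tested genes on each side of the AKR1C cluster, and the 5 genes that follow AKR1C3 best. ABCC2, APOA1, CD68, CDH1, CDX1, CDX2, COL3A1, GPA33, GPX2, HBB, KRT8, KRT20, LGALS4 and NPHP4 were named after their values were seen. So were CELF2, DIP2C, PRR26 and ZMYND11. A gene that the rule takes is not reported here.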

Additional observations from a re-analysis of the deposited data

Results flagged for a closer look

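In 121 groups of 5 libraries (the genes named by the rule above, in each population), 9 held an outlying library. Its distance from its nearest neighbour was more than 0.71 of the group's range, Dixon's critical value. Chance alone does this in about 1 in 20 groups. None was a member of the family. Of the related genes, KEAP1 was low in ROBO1neg replicate 5 (88.6 CPM), CYP26A1 was high in ROBO1neg replicate 2 (17.2 CPM), and SRD5A3 was high in ROBO1pos replicate 4 (25.1 CPM). ROBO1pos replicate 5 was the highest library for PGD (501.6 CPM), EPCAM (719.7 CPM) and KRT18 (2740 CPM). Single counts set apart AKR1B15 in ROBO1neg replicate 4 (0.0341 CPM) and KCNAB1 in ROBO1pos replicate 2 (0.0371 CPM) and ROBO1neg replicate 1 (0.0425 CPM).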

How the results depend on the processing

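Under the scalings, filters, tools and left-out libraries listed above, the 6 members higher in ROBO1pos kept that direction, except AKR1A1, which turned to -0.0075 against the median of its neighbouring genes. KEAP1 (-0.086) and NFE2L1 (0.23) also changed sign there. Against their neighbours NFE2L1 passed the threshold, and AKR1A1 and KEAP1 did not. The cause was not tested. The number of members past the threshold ran from 4 (under a filter of 5 CPM, which leaves fewer genes, and under the test against 1.5-fold) to 7, where AKR1C2 was added or, without the filter and with DESeq2, AKR1B1 as higher in ROBO1neg. Leaving out 1 library kept it between 6 and 7. The log2 fold change of AKR1C1 ran from 3.06 to 3.66, that of AKR1C3 from 5.69 to 6.33 and that of AKR1C4 from 6.01 to 6.33 over all alternatives. AKR1C2 (0.24 to 0.44) passed the threshold under upper-quartile scaling and against its neighbouring genes, without ROBO1pos replicate 5 or ROBO1neg replicate 1, and in the fit with the replicate block (0.29). The replicate numbers were not taken as pairs, since no pairing is stated. Same-numbered libraries correlated weakly and positively in their deviations (0.107, 0.0620, 0.169, 0.0659 and 0.154), and 2 of the 5 values were not above 0.1. Libraries with unlike numbers were not compared in this way, so these values do not settle whether the libraries are paired. The block moved the number of genes past the threshold from 12250 to 12312. The test against 1.5-fold left 6236 genes, and 64 of the 110 passing genes of the lists. The median of the neighbours of the AKR1C cluster was -0.080 with upper-quartile scaling, 0.031 without the filter and -0.053 with the 10 nearest genes per side. At this depth, values of AKR1B1, AKR1B10, AKR1D1 and, in ROBO1neg, AKR1C1 and AKR1C4 rest on a few counts.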
